A study of Caenorhabditis elegans with 2 samples.

Results

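The 7 dopamine genes described here, cat-2, bas-1, cat-4, ptps-1, cat-1, dat-1 and dop-2, were taken by name from the 19985 protein-coding genes of Caenorhabditis elegans, and all 7 names matched a gene. Binding of CEH-43, the Distal-less type homeodomain protein of the worm, was measured by chromatin immunoprecipitation and sequencing (ChIP-seq) in embryos of strain OP699, an unc-119(tm4063) mutant. Both replicates of the single group carried the stably expressed transgene wgIs699, which holds ceh-43::TY1::EGFP::3xFLAG, with the tag at the C-terminus, and the normal gene unc-119(+). The labels name no change in the endogenous ceh-43 gene. Embryos of both sexes and of mixed stage, aged 3 hours by the labels, came from egg bleaching and were precipitated whole with an antibody to GFP, so the chromatin of all embryonic cells was pooled. An untagged strain was not analysed here. The labels name 2 biological replicates, and nothing in them says whether these came from separate cultures.

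Dopamine is made from tyrosine by a hydroxylase and a decarboxylase, is loaded into vesicles by a monoamine transporter, and is taken back up from the synapse by a plasma membrane transporter. The hydroxylase needs tetrahydrobiopterin, a cofactor that is made from GTP. In C. elegans the few dopamine neurons are mechanosensory, and genetic work places ceh-43 upstream of this set of genes in them, together with the ETS factor gene ast-1 and the PBX factor gene ceh-20. The enzyme and transporter genes are switched on as these neurons differentiate, late in embryogenesis for those born in the embryo.

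The authors deposited 4 peak lists, each peak with a summit and a signal value whose scale the sources do not state. The thresholded list held 998 peaks that had passed a reproducibility threshold across replicates, and the relaxed lists, which include background, held 30000 peaks for both replicates together, 29979 for replicate 1 and 26127 for replicate 2. Ranks run from 1, the highest signal in a list, and the 998 thresholded peaks held ranks 1 to 998 of the relaxed list of both replicates. Each gene's window was its body plus 5000 bp to each side of every annotated start site, about 10 kb per gene and 72090 bp over the 7 genes. A homeodomain core is TAATTA or TAATTG on either strand, wholly within 50 bp of a summit; CAATTA is TAATTG read on the other strand. Read depth is unknown from these lists.

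Of the 7 dopamine genes, 2 had a thresholded summit in the window, the vesicular transporter gene cat-1 with 2 summits and the tyrosine hydroxylase gene cat-2 with 1, against 10.2% of all protein-coding genes. All genes were split by the length of their upstream intergenic sequence into 10 strata, and from the shares in the strata of the 7 genes, 0.703 of the 7 genes would have one. Neither gene had its thresholded summits at its own start. Those of cat-1 flanked a tRNA gene inside an intron, and that of cat-2 lay 144 bp from a start site of scc-2, the gene for a cohesin loading factor. None of these 3 summits had a homeodomain core within 50 bp, and 32.1% of all 975 nuclear thresholded summits had one. The exact Clopper-Pearson 95% interval for 0 of 3, 0 to 70.8%, includes that share but is too wide for a comparison. It also takes the 3 summits as independent, although the 2 of cat-1 lie in overlapping peaks. The other 5 genes, dat-1 among them, had no thresholded summit. By the ranking, any signal at them in the relaxed list of both replicates was therefore below the lowest thresholded signal of 139. The highest was 84.6, at ptps-1.

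**Figure D1:**
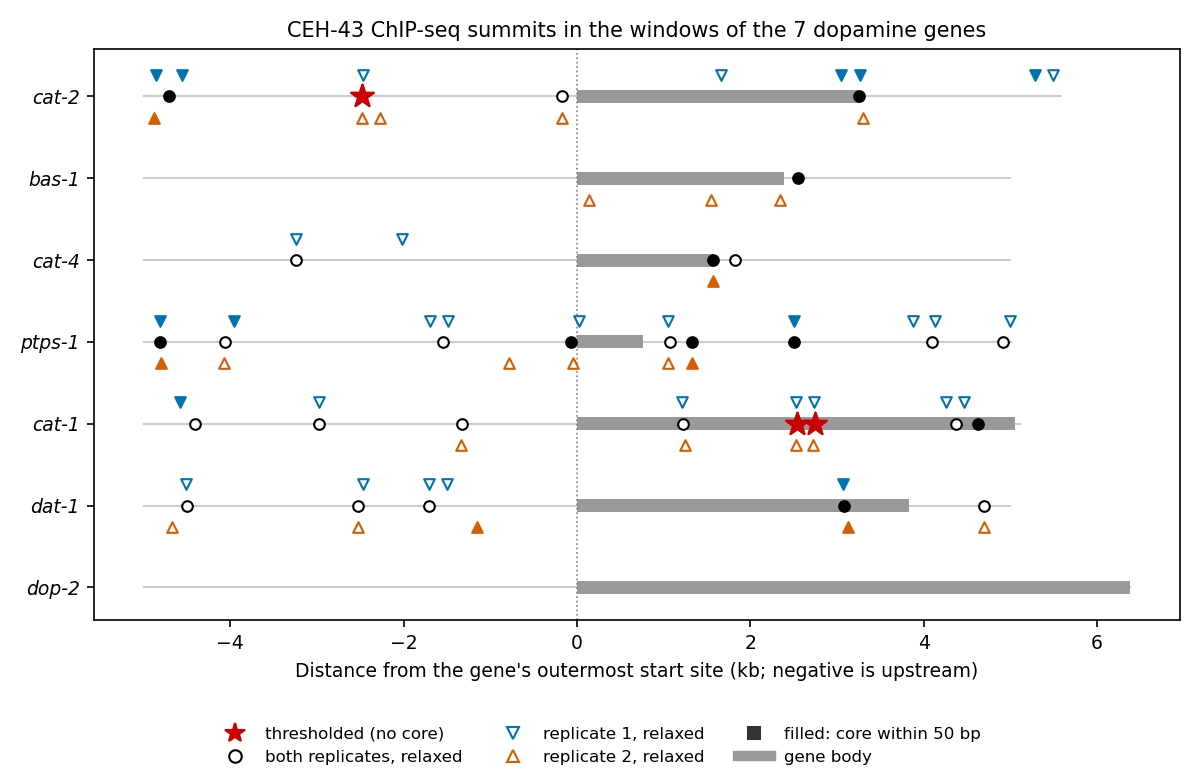
Summits in the window of each dopamine gene by distance from its outermost start site in kb, with the relaxed list of both replicates on the line, replicate 1 above it and replicate 2 below it. Stars mark the 3 thresholded summits, filled symbols have a homeodomain core within 50 bp, grey bars are gene bodies, and the dop-2 line is empty.

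cat-2 (WBGene00000296) encodes tyrosine hydroxylase, the enzyme of the first and rate-limiting step and the one particular to dopamine among the worm's amines. The gene is at 257819 to 261074 on the forward strand of chromosome II in the ce11 assembly. Its thresholded peak spans chrII:255112-255567, with the summit 2479 bp upstream of the cat-2 start. The signal was 100.1 in replicate 1, at rank 447, and 174.4 in replicate 2, at rank 157, and it was 283.9 in the list of both replicates, at rank 201. Both replicates placed it among their strongest 998 peaks, with summits within 9 bp of that of the joint list. The summit falls in an intron of the longest scc-2 transcript, which alone of the scc-2 transcripts in Ensembl runs across cat-2 on the opposite strand. RefSeq begins scc-2 144 bp short of this summit and leaves 2622 bp between scc-2 and cat-2, where Ensembl leaves 0. The sequence from 50 bp before to 50 bp after this summit is shown because it carries the highest signal in the cat-2 window and holds no homeodomain core, so no base is in capitals.

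cat-2 window, thresholded summit, chrII:255290-255390, forward strand: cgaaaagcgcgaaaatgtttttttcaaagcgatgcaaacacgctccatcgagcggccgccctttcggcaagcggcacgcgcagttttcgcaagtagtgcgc

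Nearer to the cat-2 start the signal was much lower. A summit 172 bp upstream was at rank 29717 of 30000 in the list of both replicates and at rank 16009 in replicate 2, and replicate 1 had none within 100 bp of it. The only homeodomain core in the 1000 bp upstream of cat-2 lies 59 bp before the start and 113 bp from this summit, in capitals in the 250 bp before the start.

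cat-2 upstream, chrII:257569-257818, forward strand: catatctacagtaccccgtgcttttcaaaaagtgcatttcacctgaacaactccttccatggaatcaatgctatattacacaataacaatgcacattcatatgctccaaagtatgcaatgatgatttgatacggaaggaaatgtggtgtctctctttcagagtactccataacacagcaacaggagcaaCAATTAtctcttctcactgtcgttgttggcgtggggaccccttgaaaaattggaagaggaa

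The 2 other cat-2 summits of the joint list each had a core. That at rank 6849 lay 4707 bp upstream, inside scc-2, with TAATTA 4 bp from the summit, and neither replicate had a summit within 100 bp. Within 200 bp of it both replicates had a pair of cores at a summit of their own, at rank 20110 in replicate 1 and 7770 in replicate 2. That at rank 8190 lay just past the end of cat-2 with CAATTA 28 bp away, and both replicates had it, at ranks 16381 and 9109.

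bas-1 (WBGene00000239) encodes the aromatic amino acid decarboxylase, which makes dopamine and, in other neurons, serotonin. On the forward strand of chromosome III, at 5612274 to 5614660, it had the fewest joint summits of the 6 genes that had any. There was 1 in the list of both replicates, at rank 22968, none in replicate 1 and 3 in replicate 2, at ranks 20322, 22334 and 22523, the first of them in a coding exon 133 bp past the start. The single joint summit lay 2546 bp downstream of the bas-1 start and 128 bp from the start of basl-1, the neighbouring gene of like name, and neither replicate had a summit within 100 bp of it. Of all genes, 80.4% had a summit at that rank or a higher one. The summit is shown because TAATTA and CAATTA lie within 50 bp of it, in sequence that is 22.8% G and C.

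bas-1 window, joint summit, chrIII:5614770-5614870, forward strand: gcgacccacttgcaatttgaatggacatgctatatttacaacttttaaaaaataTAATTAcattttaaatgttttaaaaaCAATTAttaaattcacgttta

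cat-4 (WBGene00000298) encodes GTP cyclohydrolase I, the first enzyme of tetrahydrobiopterin synthesis. The gene is on the forward strand of chromosome V, at 10564880 to 10566464. Its 3 joint summits were at ranks 16466, 17535 and 29624. The first lay in an exon outside the coding sequence at the end of cat-4, where the gene vps-54 overlaps it, with CAATTA 17 bp away. Replicate 2 had this summit at rank 13463 and replicate 1 did not have it. The second lay in the neighbouring collagen gene col-152 and was in replicate 1, at rank 9992, and not in replicate 2. No cat-4 summit of the joint list was in both replicates, and 72.2% of all genes had a summit as high as the best of cat-4.

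ptps-1 (WBGene00015010) encodes 6-pyruvoyltetrahydropterin synthase, the enzyme that follows GTP cyclohydrolase in making the cofactor. On the reverse strand of chromosome I, at 4652145 to 4652906, it had the most joint summits of the 7 genes, 9, of which 4 had a homeodomain core. It alone had a summit in all 3 relaxed lists within 100 bp of its start. The joint summit lay 75 bp upstream, at rank 11267 with signal 60.5. The replicate 1 summit, at rank 9734, was 99 bp from it, in a coding exon 15 bp past the start. That of replicate 2, at rank 22249, was 28 bp from the joint summit and 47 bp upstream of the start. TAATTG and CAATTA lie 30 and 40 bp from the joint summit, and neither of these replicate summits had a core within 50 bp. The 1000 bp upstream of ptps-1 hold 6 cores, a number reached by 1.1% of all protein-coding genes. The upstream sequence runs into the neighbouring gene ain-2, whose nearer edge is 560 bp away. The cores 663, 680 and 732 bp before the start lie beyond that edge. The highest joint summit of the window, at rank 4224 with signal 84.6, lay 4812 bp upstream inside ain-2, with TAATTA 5 bp away, at rank 15462 in replicate 1 and 3571 in replicate 2.

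cat-1 (WBGene00000295) encodes the vesicular monoamine transporter, which loads dopamine and other amines into synaptic vesicles. Its place is the reverse strand of chromosome X, 5705690 to 5710737. The highest signal at any of the 7 genes was in a cat-1 intron, 2628 bp downstream of the nearest start site. It was 172.0 in replicate 1, at rank 127, 200.1 in replicate 2, at rank 125, and 371.0 in the joint list, at rank 126. The rank was thus nearly the same in each list, and 1.36% of all genes had a summit as high. A second thresholded summit, on the other side of a tRNA gene, was at rank 704 in the joint list with signal 161.4, at rank 487 in replicate 1 and at rank 1723 in replicate 2. The peaks span chrX:5707895-5708131 and chrX:5707970-5708425.

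The tRNA gene between these summits is E03E2.t1, a serine tRNA gene at chrX:5708028-5708109, transcribed against cat-1. One summit is 31 bp before the tRNA gene and the other 89 bp after it. The sequence is shown because it holds both thresholded summits of cat-1, from 50 bp before the higher to 35 bp after the lower, with the tRNA gene in capitals and no homeodomain core within 50 bp of either summit.

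cat-1 intron, chrX:5707947-5708233, forward strand: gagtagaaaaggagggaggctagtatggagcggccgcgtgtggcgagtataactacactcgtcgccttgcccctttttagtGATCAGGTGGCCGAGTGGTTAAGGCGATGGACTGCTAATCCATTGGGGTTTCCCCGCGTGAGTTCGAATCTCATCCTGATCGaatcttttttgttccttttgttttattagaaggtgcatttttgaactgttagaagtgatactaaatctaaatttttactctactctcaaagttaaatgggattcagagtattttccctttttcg

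The cat-1 window holds 3 tRNA genes, and it was the only window among the 7 with any. Of the 612 nuclear tRNA genes, 26% (159) had a thresholded summit within 100 bp. Of the 847 protein-coding genes with a tRNA gene in the window, 41.9% had a thresholded summit. With summits within 100 bp of tRNA genes left out, a run chosen after seeing the data, cat-1 had no thresholded summit, the count was 1 of 7 genes, and 8.89% of all genes had one. A second serine tRNA gene in a cat-1 intron, E03E2.t2, 1250 bp from the nearest cat-1 start, is identical to E03E2.t1 over all 82 bp. The summit near E03E2.t2 was at rank 11733 in the joint list, 16280 in replicate 1 and 10546 in replicate 2. The lysine tRNA gene E03E2.t3, 2915 bp upstream of cat-1, had a summit at rank 11540 that replicate 1 had at rank 3833 and replicate 2 did not have. In all, 4 of the 8 joint summits of cat-1 were within 100 bp of a tRNA gene, and 1 of the 8 had a homeodomain core, at rank 12316 in a coding exon. The part of the tRNA genes in the cat-1 signal was not tested.

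**Figure D2:**
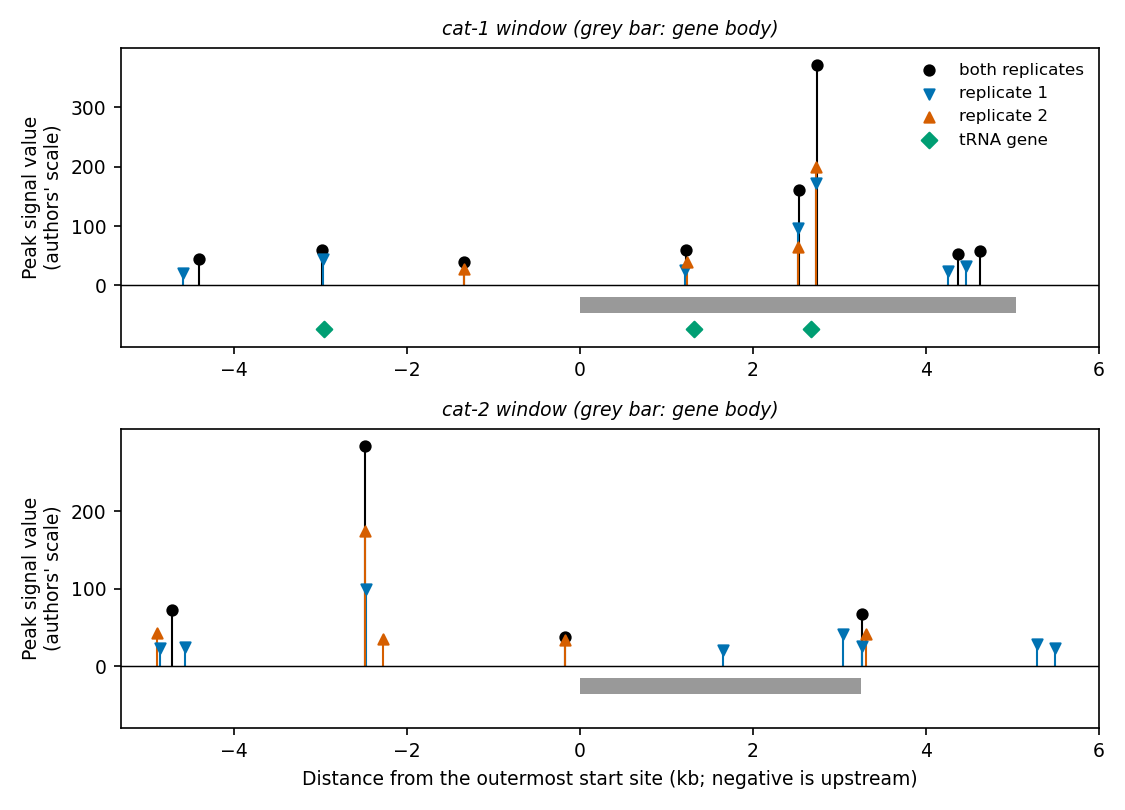
Signal value of every summit in the windows of cat-1 (top) and cat-2 (bottom) by distance from the outermost start site in kb, for the joint list and each replicate, on the authors' scale, which differs between lists. Grey bars are gene bodies and diamonds are tRNA genes. In the joint list the 2 tallest cat-1 signals, 371.0 and 161.4, stand on either side of a tRNA gene. The tallest joint signal of cat-2, 283.9, stands 2479 bp before the start.

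dat-1 (WBGene00000934) encodes the dopamine reuptake transporter, a gene used as a marker of dopamine neurons. It lies on the forward strand of chromosome III, 9242975 to 9246802, and its upstream intergenic sequence, up to the gene saeg-2, is 460 bp. No summit of any list lay within 1000 bp upstream of dat-1. The nearest was 1153 bp upstream, in replicate 2 only, at rank 16887 with a core within 50 bp, and the nearest thresholded summit was 138733 bp away. The intergenic sequence holds a homeodomain core 353 bp before the start that directly adjoins CCGGAA, a word of the ETS type, on the other strand, and a further CCGGAA stands 232 bp before the start. The nearest summits to that core were 1359 bp away in the joint list, 1148 bp in replicate 1 and 800 bp in replicate 2. The 200 bp beginning 400 bp before the start are shown because they hold these words, in capitals, where the lists show no peak.

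dat-1 upstream, chrIII:9242575-9242774, forward strand: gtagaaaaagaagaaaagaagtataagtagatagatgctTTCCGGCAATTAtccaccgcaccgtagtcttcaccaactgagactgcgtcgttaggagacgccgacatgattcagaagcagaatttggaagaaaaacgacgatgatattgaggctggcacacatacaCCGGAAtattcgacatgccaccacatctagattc

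The 5 joint summits of dat-1 were at ranks 5216 to 26518. The highest, with signal 79.1, lay inside the gene saeg-2, 83 bp past its start, and was at ranks 6437 and 5748 in replicates 1 and 2. A dat-1 intron held the only joint summit of the window with a core. It was at rank 7116 with signal 71.2, and its TAATTG was centred 2 bp from the summit. The signal was 28.9 in replicate 1, at rank 12522, and 50.6 in replicate 2, at rank 4415, with summits 14 and 50 bp from the joint one. This site is shown because it is the site inside dat-1 with a core and a summit in each list.

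dat-1 intron summit, chrIII:9246005-9246105, forward strand: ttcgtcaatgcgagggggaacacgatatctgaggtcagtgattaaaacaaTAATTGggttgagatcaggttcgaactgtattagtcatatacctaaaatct

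dop-2 (WBGene00001053) encodes a D2-like dopamine receptor, which dopamine neurons themselves express. It lies on the forward strand of chromosome V, 9608556 to 9614940, with 17292 bp of intergenic sequence upstream. No summit of any list lay in its window of 11385 bp, and 5.64% of all genes (1128) had none in any relaxed list. Among genes in the same stratum of upstream intergenic length the share was 4.55%. The window ended at the gene's end, 9614940. The nearest summits to the outermost of its 5 start sites lay past that end. They were 11301 bp downstream in the joint list, 11189 bp downstream in replicate 1 and 7190 bp downstream, at 9615746, in replicate 2. Its window nonetheless held 17 homeodomain cores, 1.49 per kb, and the median over all genes was 1.40 per kb. The 1000 bp upstream of dop-2 held none.

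**Figure D3:**
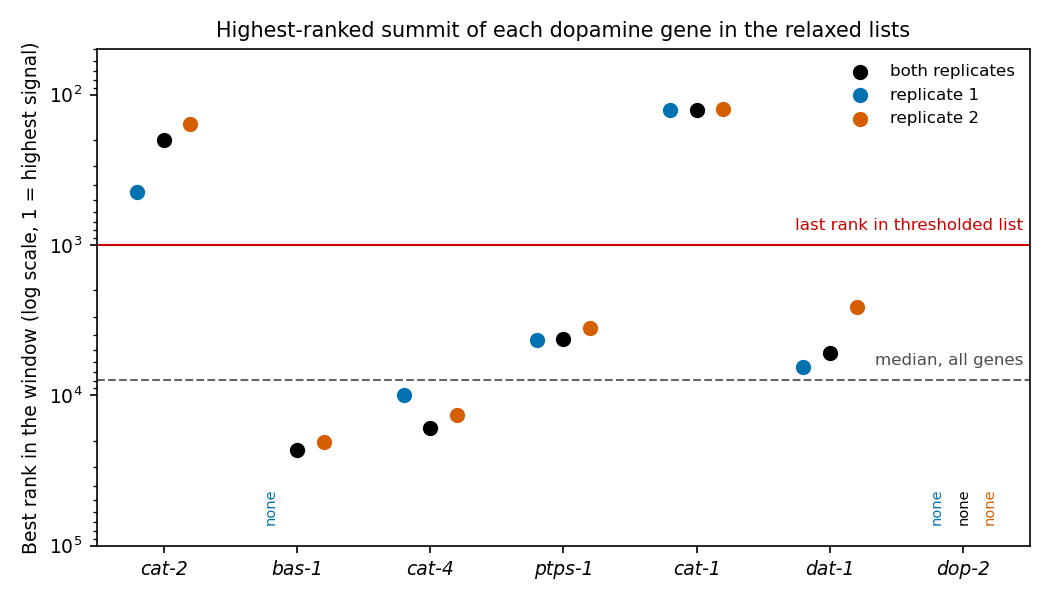
Rank of the highest summit in each dopamine gene's window in the 3 relaxed lists, on a log axis with rank 1 at the top. The red line is the last rank of the thresholded list, 998, and the dashed line is the median over all protein-coding genes in the joint list, 7914; cat-1 and cat-2 stand above the red line in every list and dop-2 has no summit.

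In the relaxed lists nearly every gene had a summit, so a summit there does not set a gene apart. Of the 7 dopamine genes, 6 had one in the joint list against 85.2% of all genes, 5 in replicate 1 against 87.6%, and 6 in replicate 2 against 86.1%. From genes of like intergenic length, 5.96, 6.11 and 6.02 of the 7 would have one. Among the strongest 3000 summits of the joint list the count stayed at 2 of 7, cat-1 and cat-2, against 25.3% of all genes and 1.78 of 7 from genes of like intergenic length. The median best rank of the 7 genes was 5216 in the joint list, 6437 in replicate 1 and 3571 in replicate 2, and the medians over all genes were 7914, 7857 and 7878. The order turned with the window, since the 7 genes ranked behind all genes with windows of 2000 bp (16466 against 15809) or 10000 bp (5216 against 4217) and with the nearest start only (29717 against 21671). The median number of joint summits was 4 per dopamine gene and 3 over all genes, with an interquartile range of 1 to 5. Per 10 kb of window the medians were 3.78 and 2.89, with an interquartile range over all genes of 1 to 4.

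The windows of these genes also hold their neighbours, and 19 of the 30 joint summits (63.3%) were nearer to the start of another protein-coding gene. Over the windows of all protein-coding genes the share was 55.7%. The thresholded summit of cat-2 was among the 19. A thresholded summit was then counted only for the protein-coding gene with the nearest start. That left 1 of the 7 genes, cat-1, against 4.25% of all genes. Starts of tRNA genes were left out of both counts. The cat-1 thresholded summits lay 31 and 89 bp from a tRNA gene, and 2628 and 2427 bp from a cat-1 start. Within 1000 bp upstream of a start, 2 of the 7 genes, cat-2 and ptps-1, had a joint summit against 36.0% of all genes. In that interval replicate 1 had a summit at none of the 7 genes against 36.7%, and replicate 2 had one at cat-2 and ptps-1 against 32.7%. From genes of like intergenic length, 2.57, 2.58 and 2.33 of the 7 would have one.

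At 4 of the 7 genes a joint summit was found in both replicates, and from genes of like intergenic length 3.86 of the 7 would have one. cat-1, cat-2, dat-1 and ptps-1 had a joint summit that each replicate also had within 100 bp, against 55.1% of all genes, and bas-1, cat-4 and dop-2 had none. Of the 30 joint summits, 10 were in both replicates, and over the whole joint list 29.7% were.

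Homeodomain cores were compared between the summits at these genes and all summits. Of the 30 joint summits, 10 (33.3%, exact Clopper-Pearson 95% interval 17.3 to 52.8%, counting error only) had a core within 50 bp, and over all 29977 nuclear summits of that list the share was 25.7%. The share was 31.2% (10 of 32) in replicate 1 and 25% (6 of 24) in replicate 2, against 29.5% and 20.4% of all nuclear summits. In windows of the same width centred 500 bp to either side, 4 of 60 at the dopamine genes had a core (6.67%) and 10.8% did over the list. The interval for the 30 summits includes the share of the whole list.

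Words of the factor types known from the genetics of dopamine neurons were counted in the 1000 bp before each gene's outermost start. A homeodomain core was present at 5 of the 7 genes, absent at cat-1 and dop-2, and present at 76.3% of all genes. CCGGAA on either strand was present at 4 of the 7, cat-1, cat-2, dat-1 and bas-1, and at 28.2% of all genes. TGATNNAT, a word of the PBX type, was present at 5 of the 7, absent at dat-1 and ptps-1, and at 57.6% of all genes. All 3 words together were found upstream of cat-2 and bas-1, and upstream of 12.2% of all genes. A match is only a run of letters and was not tested as a site.

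**Figure D4:**
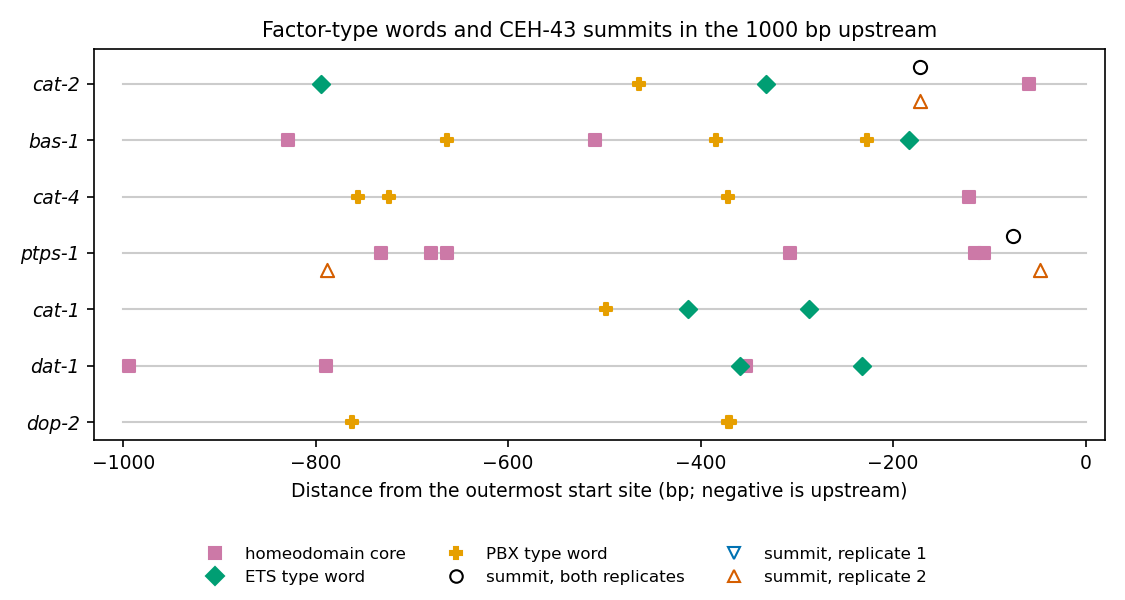
Homeodomain cores, CCGGAA (ETS type) and TGATNNAT (PBX type) in the 1000 bp before each gene's outermost start site, with the summits of the joint list and replicate 2; replicate 1 has no summit there. Summits stand near the starts of cat-2 and ptps-1, and replicate 2 has a further summit at ptps-1.

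Other genes of dopamine and biogenic amine biology were counted in the same way. Of 23 names listed, 22 matched a gene, and none of the 22 had a thresholded summit in the window, beside the 10.2% of all genes. The joint list had a summit at 20 of the 22, against 85.2% of all genes. The median best rank over all 22, with genes lacking a summit placed last, was 12315, below the 7914 of all genes. The highest were agmo-1, for a tetrahydrobiopterin-dependent monooxygenase (rank 2746), amx-1 (4453), comt-1 (4473) and amx-2 (6720). Of these, comt-1 is named for catechol-O-methyltransferase, and amx-1 and amx-2 are named for amine oxidase. The other dopamine receptor genes dop-5, dop-6, dop-3, dop-1 and dop-4 had best ranks of 8471, 10911, 12795, 21009 and 29189. The tryptophan hydroxylase gene tph-1, which marks serotonin neurons, had a summit in replicate 2 only, at rank 22402. For scale, the ceh-43 gene's own window held 4 thresholded summits, the best at rank 7.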

How the data were processed

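Per the text deposited with the lists, the authors called each replicate's relaxed list against a control that both replicates shared, derived the joint list from both, and thresholded by irreproducible discovery rate (IDR), on ce11. Not given in the sources used here are the aligner, the peak caller and the IDR cutoff. The deposited signal value of each peak (column 7) was used to rank within a list, and the deposited −log10 q-value (column 9) was not used to select peaks. Summit offsets are the authors'. Coordinates are 1-based on ce11, the same assembly as WBcel235; genes came from Ensembl release 115, and tRNA names and sequence from RefSeq.

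Summits were assigned to windows and words searched with Python 3.11.15, numpy 2.4.6 and scipy 1.17.1, checked on simulated data. Expected numbers are sums over the genes of the share of all protein-coding genes, in the gene's stratum of upstream intergenic length, that met the same criterion. No tests were made: there is 1 group, and depth is unknown. The genes, lists and words were chosen with earlier results of these data known. All 7 genes were named; of the related list, the rule names the 4 of highest joint rank when none has a thresholded summit, and the receptors and tph-1 were named besides.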

Additional observations from a re-analysis of the deposited data

How the results depend on the processing

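The count of 2 genes with a thresholded summit, cat-1 and cat-2, was the same with 10000-bp windows, the outermost start only, the stronger 499 peaks, the strongest 3000 joint peaks, and with either replicate left out (2 to 2, from the other replicate's strongest 998). It was 1 with 2000-bp windows (cat-1), with 5000 bp upstream only (cat-2), with the nearest protein-coding start only (cat-1) and without tRNA summits (cat-2). It was 0 with 1000 bp upstream only, where 3.11% of all genes had one. The tRNA, 1000-bp and RefSeq alternatives were chosen after seeing the data. The median best rank, 5216, was 16466 with 2000-bp windows, 11540 upstream only, 29717 with the nearest start only and 5216 with 10000-bp windows, and the medians over all genes were then 15809, 14170, 21671 and 4217. It ran from 3571 to 6437 with a replicate left out. The share of summits with a core was 70% for TAAT (67.7% of all nuclear summits), 16.7% for TAATTA alone (12.4%), 20% within 25 bp (14.6%), 43.3% within 100 bp (41%) and 38.5% without tRNA summits (25.9%); it ran from 25 to 31.2% with a replicate left out. The expected number ran from 0.659 to 0.723 over 3 other choices of intergenic length or its strata, and was 0.729 from strata of window length and 0.601 without tRNA summits. The count of genes with a summit in both replicates was 4 in each of 3 alternatives. Depth, which is unknown, limits what the absence of a summit shows. No paired analysis was possible because there is 1 group.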

Other observations

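The windows of 50 bp to each side of the strongest cat-1 summit and the cat-2 summit share a run of 10 bases, GAGCGGCCGC, which was noticed after the sequences had been seen. It contains the palindrome GCGGCCGC. Since the word was chosen from these summits, they are left out of the summit counts. The flanking windows are those of all nuclear summits of a list, these included. It lay within 50 bp of 1 of the other 973 nuclear thresholded summits (0.103%) and in 0.103% of the flanking windows 500 bp away. In the joint list it lay at 0.0867% of the other nuclear summits and in 0.0584% of the flanking windows. In the nuclear genome the word occurs 396 times, and 5 of these places have a thresholded summit within 100 bp, those at cat-1 and cat-2 included.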
